A study of Mus musculus with 6 samples.

Results

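Ion channels of the potassium, voltage-gated calcium, TRPM and TRPV families were examined in primary cultures of mouse testicular peritubular myoid cells, the smooth-muscle-like cells that surround the seminiferous tubules. Members were taken by symbol (Kcn, Cacna, Cacnb and Cacng genes, Trpm and Trpv genes followed by a digit). The symbol rule matched 134 rows of the deposited table, 133 of which had values in all 6 libraries, out of 19285 genes with values. A level of at least 1 FPKM (fragments mapped to a gene, divided by its transcript length and by library depth) in at least 3 libraries was reached by 25 of the 133 (18.8%), against 11664 of all 19285 genes. The remaining row, Kcnk16, had no value.

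The 3 ET-1 libraries came from C57BL/6J cells given 50 nM endothelin-1 (ET1 in the labels) for 5 min, and the 3 untreated libraries from the same kind of cells without the peptide. All were primary cultures, grown in medium with serum. Total RNA was sequenced. Nothing in the labels ties a replicate to its own culture or animal. The p-values below therefore cover the spread among these 6 libraries alone, which may be technical. The comparison asks whether transcripts of these channels differed between cultures with and without a brief exposure to a peptide that contracts smooth muscle.

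In smooth muscle, potassium channels pull the membrane towards its resting voltage, and voltage-gated calcium channels open when the membrane depolarises and admit the calcium that drives contraction. Each of these channels has a pore, and many pores carry auxiliary subunits that set their trafficking and gating. TRPM and TRPV channels are cation channels that respond to calcium, temperature, stretch or lipids, and some of them depolarise smooth muscle cells. Endothelin acts through receptors that release calcium from stores, and channels of other families, such as calcium-activated chloride and TRPC channels, also take part in the voltage response of smooth muscle.

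Depth and purity bear on every value below. Depth was estimated as the value at which low FPKM most often stood for whole fragments. It was about 17610000 to 18150000 fragments in the ET-1 libraries and 18190000 to 18320000 in the untreated libraries. All 7 myoid and smooth muscle markers listed passed the filter, with summed levels of 3955 to 5585 FPKM in ET-1 and 3466 to 3896 FPKM in untreated libraries. Of the 7, 5 had a positive log2 change (ET-1 over untreated) and 2, Myh11 and Des, a negative one. Markers of other testicular cells were present as well: 8 of 10 macrophage, 6 of 8 endothelial, 7 of 8 Sertoli, 4 of 6 Leydig and 2 of 7 germ cell markers passed. The summed macrophage markers were at 277.2 to 631.6 FPKM in ET-1 libraries and 114.2 to 171.5 FPKM in untreated libraries. The summed Leydig markers were at 827.7 to 2422 FPKM and 2335 to 4960 FPKM, and the summed endothelial markers at 26.8 to 47.2 FPKM and 60.4 to 95.6 FPKM, in the same order of groups. The Leydig sum is mostly Insl3, and the markers of that list did not move together. Star lay at 103.7 to 155.1 FPKM in ET-1 libraries, all above 62.0 to 79.7 FPKM in untreated libraries. Insl3, Cyp11a1 and Hsd3b1 overlapped between the groups, and these 3 of the 4 tested Leydig markers had a negative log2 change (ET-1 over untreated). The Sertoli sum was at 402.8 to 1051 FPKM in ET-1 and 193.0 to 674.3 FPKM in untreated libraries. Of its 7 tested markers 2, Aard and Gstm6, were called higher in ET-1 by limma (1.57% of all genes were). The other tested Sertoli markers overlapped between the groups, and Fshr alone of the 7 had a negative log2 change. By the same test, 4 of 6 tested endothelial and 1 of 5 pericyte and vascular smooth muscle markers were called lower (1.89% of all genes were). In the macrophage list 1 of 8 tested markers was called higher, and none was called in the myoid, Leydig and germ cell lists. Fewer cells of a type and less RNA per cell cannot be told apart in such samples.

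Promoters of 4 members are shown first, as 2 pairs of related genes in which 1 gene passed the test described below and the other did not. Cacng7 and Cacng8 are neighbours on chromosome 7 and encode gamma subunits of the kind that also escort AMPA receptors in neurons. Kcnmb4 and Kcnmb1 encode auxiliary beta subunits of the BK channel, a large-conductance potassium channel opened by calcium and voltage. Each sequence runs 5′ to 3′ on the strand of the gene, from 250 bases before to 50 after the annotated start (RefSeq, GRCm38.p6, the same assembly as mm10), and capitals mark CpG dinucleotides. The Cacng7 window lies upstream of the start of the deposited Cacng7 model, and its bases just after the annotated start were not found in GENCODE transcripts of the gene.
Cacng7, chr7:3332575-3332874, plus strand: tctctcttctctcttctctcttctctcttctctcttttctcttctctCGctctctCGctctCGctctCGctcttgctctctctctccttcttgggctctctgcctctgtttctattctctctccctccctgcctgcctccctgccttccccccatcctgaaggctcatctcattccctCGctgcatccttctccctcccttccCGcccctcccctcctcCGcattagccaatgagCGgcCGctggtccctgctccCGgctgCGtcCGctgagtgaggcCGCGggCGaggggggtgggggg
Cacng8, chr7:3393792-3394091, plus strand: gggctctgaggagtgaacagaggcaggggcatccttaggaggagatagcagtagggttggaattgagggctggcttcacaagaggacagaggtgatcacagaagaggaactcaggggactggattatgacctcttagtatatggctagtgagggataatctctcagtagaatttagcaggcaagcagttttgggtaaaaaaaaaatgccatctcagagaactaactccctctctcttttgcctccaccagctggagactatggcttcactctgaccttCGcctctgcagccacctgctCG
Kcnmb4, chr10:116473474-116473773, minus strand: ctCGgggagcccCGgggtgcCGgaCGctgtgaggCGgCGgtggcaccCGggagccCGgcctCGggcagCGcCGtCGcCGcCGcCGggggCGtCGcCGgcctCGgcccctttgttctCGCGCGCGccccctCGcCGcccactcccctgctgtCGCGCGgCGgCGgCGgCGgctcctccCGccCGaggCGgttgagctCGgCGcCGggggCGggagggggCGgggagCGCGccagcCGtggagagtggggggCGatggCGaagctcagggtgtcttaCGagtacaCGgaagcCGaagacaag
Kcnmb1, chr11:33962763-33963062, plus strand: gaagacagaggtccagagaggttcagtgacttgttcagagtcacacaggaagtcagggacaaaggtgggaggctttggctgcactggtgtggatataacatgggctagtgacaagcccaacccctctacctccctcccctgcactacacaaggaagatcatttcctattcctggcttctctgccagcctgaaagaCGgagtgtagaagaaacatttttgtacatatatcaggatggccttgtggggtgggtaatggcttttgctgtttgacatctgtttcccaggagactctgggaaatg

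The members of each pair differed in CpG content. Cacng7 held 15 CpG dinucleotides in 300 bases (observed over expected 0.62) and Cacng8 held 2 (0.11). Kcnmb4 held 48 (observed over expected 1.04), and Kcnmb1 held 1 (0.055). Promoters with an observed over expected ratio of at least 0.6 were found for 12 of the 21 tested channel genes that have an entry in the promoter table (57.1%), against 7291 of 9373 tested genes of any kind (77.8%). Among channel genes below the filter the share was 30 of 80 (37.5%), against 1454 of 5926 for all genes below it (24.5%). Over all genes, it was 84 of 137 (61.3%) for those called higher in ET-1 and 92 of 169 (54.4%) for those called lower. The 2 pairs were picked by test outcome, and whether CpG content goes with a call was not tested. The GC box GGGCGG, searched on both strands, occurred 4 times in the Kcnmb4 and 1 time in the Cacng7 promoter and was not in the other two windows; 35.7% of all 32851 promoters hold it. The cyclic AMP response element TGACGTCA (1.79% of all promoters), the AP-1 site TGANTCA (7.81%) and the CArG box, the site of serum response factor (1.63%), were in none of the 4 windows. Each of these 3 motifs reads alike on both strands.

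Auxiliary subunits were detected more often than pores. They were also the larger part of the summed channel level, in 4 of 6 libraries only with 1 of them, Cacnb3, counted. Of 33 genes of auxiliary or regulatory subunits 13 passed the filter (39.4%), against 12 of 100 pore-forming genes (12%). On the FPKM scale, which is per length, auxiliary subunits held 53.6% to 64.8% of that sum in the ET-1 libraries and 50.1% to 54.6% in the untreated libraries. Without Cacnb3 the share was below 50% in 4 of 6 libraries, at 42.3% to 53.7% in ET-1 and 41.1% to 43.7% in untreated libraries, an alternative chosen after seeing the data. No pore was left out there, so a lower auxiliary share was certain in advance. With Cacnb3, the auxiliary sum was 96.6 ± 16.1 FPKM in ET-1 and 77.7 ± 6.8 FPKM in untreated libraries, and that of the pores 61.6 ± 5.8 and 72.7 ± 12.8 FPKM in the same order (mean ± SD, n = 3 each). These sums were compared only as levels and were not tested. Of the 108 genes below the filter, 74 had a mean under 0.1 FPKM and 9 were listed at 0 in all 6 libraries.

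**Figure D1:**
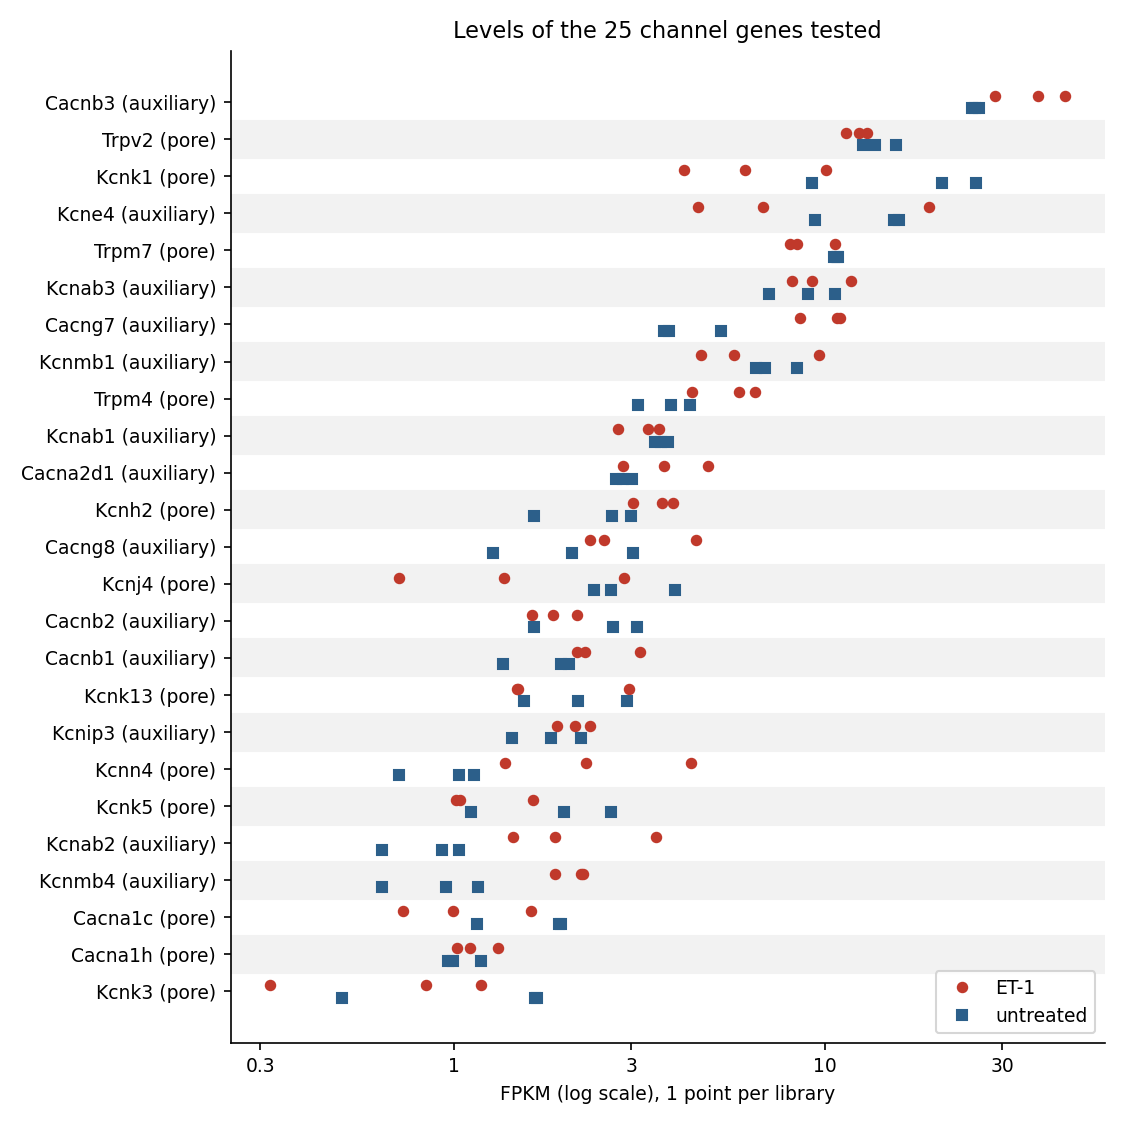
FPKM of the 25 channel genes that passed the filter, on a log axis, with 1 point per library (circles ET-1, squares untreated) and genes ordered by their mean over 6 libraries. Cacnb3 stands above all others at 24.9 to 44.2 FPKM, and each of the remaining genes overlaps its neighbour in the order.

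By level, Cacnb3, a cytoplasmic beta subunit that brings calcium channel pores to the membrane, came first at a mean of 31.1 FPKM over the 6 libraries. It was followed by Trpv2 (13.1 FPKM), Kcnk1 (12.6), Kcne4 (11.8), Trpm7 (9.86), Kcnab3 (9.28), Cacng7 (7.16), Kcnmb1 (6.96), Trpm4 (4.66) and Kcnab1 (3.42). The lowest value of Cacnb3 (24.87 FPKM) lay above the highest value of Trpv2 (15.52 FPKM). In 23 of the 24 steps down the order, the ranges of neighbouring genes over the 6 libraries overlapped, so most ranks are not separated by more than the spread.

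Voltage-gated potassium pores were nearly all below the filter. Of 40 such genes 1 passed, Kcnh2, the pore of the rapid delayed rectifier of the heart. Kcnh2 was at 3.64, 3.88 and 3.04 FPKM in ET-1 libraries and 3.0, 1.64 and 2.67 FPKM in untreated libraries 1 to 3. All ET-1 values lay above the untreated values, by little in ET-1 library 3, and the difference did not pass (log2 change 0.41, 95% interval -0.018 to 0.84, limma adjusted p = 0.222). The vascular smooth muscle pores Kcna5 and Kcnq5 were low. Kcna5 averaged 0.037 ± 0.035 FPKM in ET-1 and 0.070 ± 0.036 FPKM in untreated libraries, and Kcnq5 0.057 ± 0.021 and 0.080 ± 0.070 FPKM in that order (SD, n = 3 each).

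Kcnd3, a pore of the transient outward current, lay just under the filter with 2 libraries at 1 FPKM or more. It was at 0.78, 1.81 and 1.25 FPKM in ET-1 libraries and 0.67, 0.56 and 0.57 FPKM in untreated libraries. Kcnd3 is 1 of 7 members below the filter with at least 1 such library, the others being Kcnd1, Kcnj15, Kcnk2, Kcnk6, Trpv4 and Cacng6. Just inside the filter was Kcnk3, with 3 such libraries.

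The auxiliary subunits of these pores were more abundant than the pores. All 3 Kcnab genes passed; they encode cytoplasmic beta subunits of the Shaker-type pores, none of which (Kcna genes) reached a mean above 0.27 FPKM. Kcnab3 was at 9.20, 11.72 and 8.13 FPKM in ET-1 libraries and 8.97, 10.64 and 7.03 FPKM in untreated libraries (log2 change 0.12, 95% interval -0.32 to 0.55). Kcnab1 averaged 3.21 ± 0.41 and 3.62 ± 0.15 FPKM in ET-1 and untreated libraries (SD, n = 3 each; log2 change -0.14, 95% interval -0.42 to 0.15). Kcne4, a single-span subunit that restrains several pores, was at 18.98, 6.81 and 4.55 FPKM in ET-1 libraries and 15.77, 9.37 and 15.35 FPKM in untreated libraries. ET-1 library 1 held the highest Kcne4 value and the other 2 ET-1 libraries the lowest, so the groups overlapped (log2 change -0.57, 95% interval -1.67 to 0.53). The value was -1.11 without ET-1 library 1 and -0.18 without ET-1 library 3. Kcnip3, a calcium-binding partner of transient outward pores, averaged 2.11 ± 0.22 FPKM in ET-1 and 1.81 ± 0.38 FPKM in untreated libraries (SD, n = 3 each).

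The BK channel showed the same imbalance. Its only pore gene, Kcnma1, was at 0.17, 0.04 and 0.23 FPKM in ET-1 libraries and 0.23, 0.14 and 0.25 FPKM in untreated libraries, which at this depth corresponds to about 4 to 28 fragments per library. Kcnmb1, its smooth muscle beta subunit, was at 5.67, 9.64 and 4.63 FPKM in ET-1 libraries and 8.40, 6.51 and 6.88 FPKM in untreated libraries. The level of Kcnmb1 was 20.1 to 241 times that of Kcnma1 within a library. The highest ratio rests on the lowest Kcnma1 value, of about 4 fragments in ET-1 library 2. Kcnmb1 did not pass the test, with a log2 change of -0.16 (95% interval -0.73 to 0.41), which turned to 0.035 without ET-1 library 3. ET-1 library 2, the highest in Kcnmb1, was also the highest in the smooth muscle gene Cnn1, at 163.7 FPKM against 60.3 to 96.7 FPKM in the other 5 libraries. Of the same marker list it was highest in Acta2, Tagln, Actg2 and Cald1 too. It was not highest in Myh11 (48.42 against 51.15 FPKM in untreated library 1) or Des (90.73 against 91.71 FPKM there). Whether these are linked to Kcnmb1 was not tested. Kcnmb2 and Kcnmb3 were listed at 0 in all libraries.

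**Figure D2:**
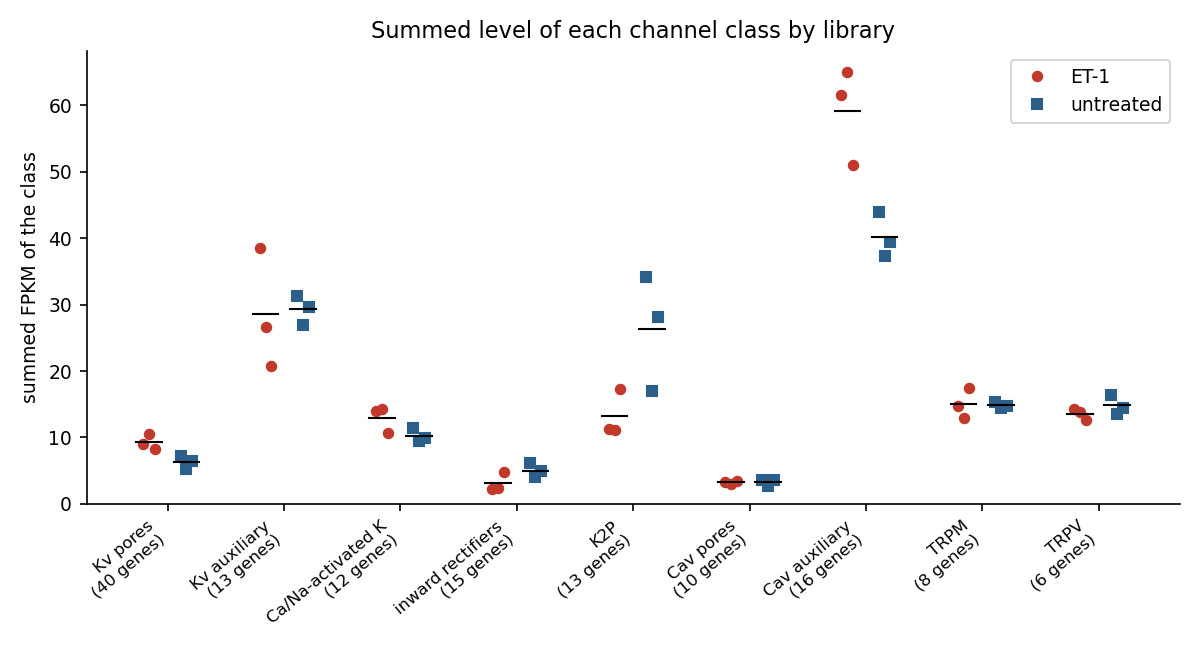
Summed FPKM of each channel class in each library (circles ET-1, squares untreated; lines are means of 3 libraries). Auxiliary subunits of voltage-gated calcium channels sum to 50.95 to 65.1 FPKM in ET-1 and 37.3 to 44.0 FPKM in untreated libraries, and tandem pore domain (K2P) potassium channels to 11.2 to 17.4 FPKM and 16.9 to 34.1 FPKM in that order.

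Of the 25 tested channel genes, 2 were past the limma threshold (Benjamini-Hochberg adjustment over all 11664 genes, 0.05). These were Cacng7 and Kcnmb4, both higher in ET-1. The background share was 3.46% of all genes (404), made up of 1.57% higher (183) and 1.89% lower (221). With 2 genes called, nothing particular to the channels is read from their share. The median log2 change of the 25 was 0.068, with 13 above and 12 below 0, against a median of -0.027 over all genes tested. In 8 channel genes the ET-1 values all lay above the untreated values, and in 0 they all lay below (7 of the 25 had an unadjusted limma p under 0.05 in either direction, against 24.1% of all genes); over all genes the groups did not overlap in 30.9%, with 13.2% above and 17.6% below. Among the 8, Kcnab2, Kcnmb4 and Kcnn4 had FPKM of at least 1 in all ET-1 libraries but in only 1 or 2 untreated libraries. These genes thus passed the filter through the ET-1 group. The filter counts libraries of both groups alike, and its part in the split was not tested. Blocking on the replicate number gave 3 channel genes, adding Kcnk1, where 1102 of all genes passed (9.45%). In the authors' deposited table, 58 of the 112 channel genes with a q-value had one below 0.05, against 66.1% of all genes there. Of the 25 channel genes past the filter 21 had one (84.0%), for which no like share of all filtered genes was taken.

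**Figure D3:**
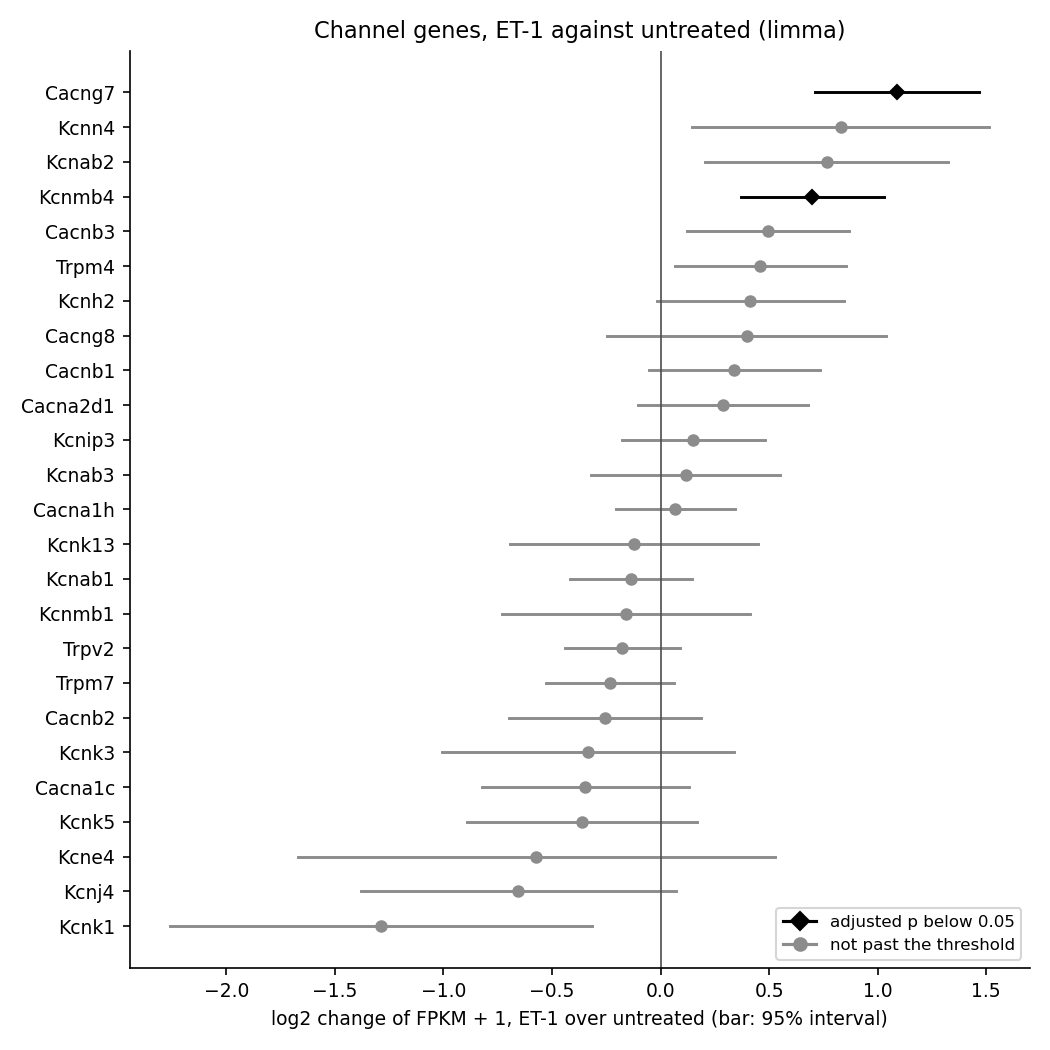
Log2 change of FPKM + 1, ET-1 over untreated, for the 25 tested channel genes with its 95% interval from limma, ordered by size. Cacng7 (1.09) and Kcnmb4 (0.70) are the filled diamonds past the threshold, and Kcnk1 (-1.29) has the lowest value with an interval from -2.26 to -0.31.

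Cacng7 had the smallest p of the channel genes. It was at 10.96, 8.57 and 10.73 FPKM in ET-1 libraries, against 5.24, 3.8 and 3.67 FPKM in untreated libraries. Every ET-1 value lay above every untreated value, and the means of 10.1 ± 1.3 and 4.24 ± 0.87 FPKM (SD, n = 3 each) differed 2.38-fold. The log2 change was 1.09 ± 0.16 (SE), with a limma adjusted p of 0.0254 and, blocked on replicate number, of 0.0118. The call was lost without ET-1 library 1 (adjusted p = 0.0819) or untreated library 3 (0.140), and when the mean of untreated libraries 1 and 3 was used (0.0807), while the log2 change stayed between 1.01 and 1.22 when 1 library was left out. The deposited model of Cacng7 (chromosome 7, 3336585 to 3366948, mm10, plus strand) is 828 bases long, a multiple of 3, whereas its GENCODE exons cover 2441 bases, so its FPKM is per base of a short, apparently coding model. No exon of another gene overlaps it there.

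The neighbours of Cacng7 on chromosome 7 were read beside it. Cacng8 was at 4.48, 2.54 and 2.32 FPKM in ET-1 libraries and 3.04, 1.27 and 2.08 FPKM in untreated libraries, with overlapping groups (log2 change 0.40, 95% interval -0.24 to 1.04, limma adjusted p = 0.416). Cacng6, the next gene, stayed below the filter at 0.77, 0.37 and 0.18 FPKM in ET-1 libraries and 1.07, 0.75 and 0.82 FPKM in untreated libraries. Upstream of Cacng7, Myadm, which encodes a membrane protein first described in myeloid cells, averaged 172.1 ± 12.6 and 134.7 ± 22.0 FPKM in ET-1 and untreated libraries (SD, n = 3 each; limma adjusted p = 0.179). The means of Cacng7, Cacng8 and Myadm were thus all higher in ET-1 and that of Cacng6 lower, with Cacng7 alone past the threshold; differences between these genes were not tested.

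Kcnmb4, the beta subunit that slows BK channels of neurons and resists toxin block, was at 2.22, 2.2 and 1.87 FPKM in ET-1 libraries, against 1.16, 0.64 and 0.95 FPKM in untreated libraries. All ET-1 values were higher, with means of 2.10 ± 0.20 and 0.92 ± 0.26 FPKM (SD, n = 3 each), 2.29-fold apart. The log2 change was 0.70 ± 0.14 (SE), with a limma adjusted p of 0.0488 and, blocked on replicate number, of 0.0368. The values stand for about 34 to 40 fragments in ET-1 and 12 to 21 fragments in untreated libraries. The adjusted p rose past the threshold whichever library was left out, from 0.0506 without ET-1 library 3 to 0.215 without untreated library 3, and also at pseudocounts of 0.1 (0.0568) and 5 (0.0520). Kcnmb4 entered the test through the ET-1 group, with all 3 ET-1 libraries but only untreated library 1 at 1 FPKM or more, and without the filter its adjusted p was 0.0732. On the opposite strand, the antisense genes Kcnmb4os2 and Kcnmb4os1 cover 20.8% and 10.7% of the Kcnmb4 exon bases in GENCODE. No source used here says whether counting used strand, so reads of Kcnmb4 and of these genes cannot be told apart there. The deposited Kcnmb4 model is 1005 bases long, against 3324 exon bases in GENCODE. How much of the deposited model the antisense genes cover was not checked.

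**Figure D4:**
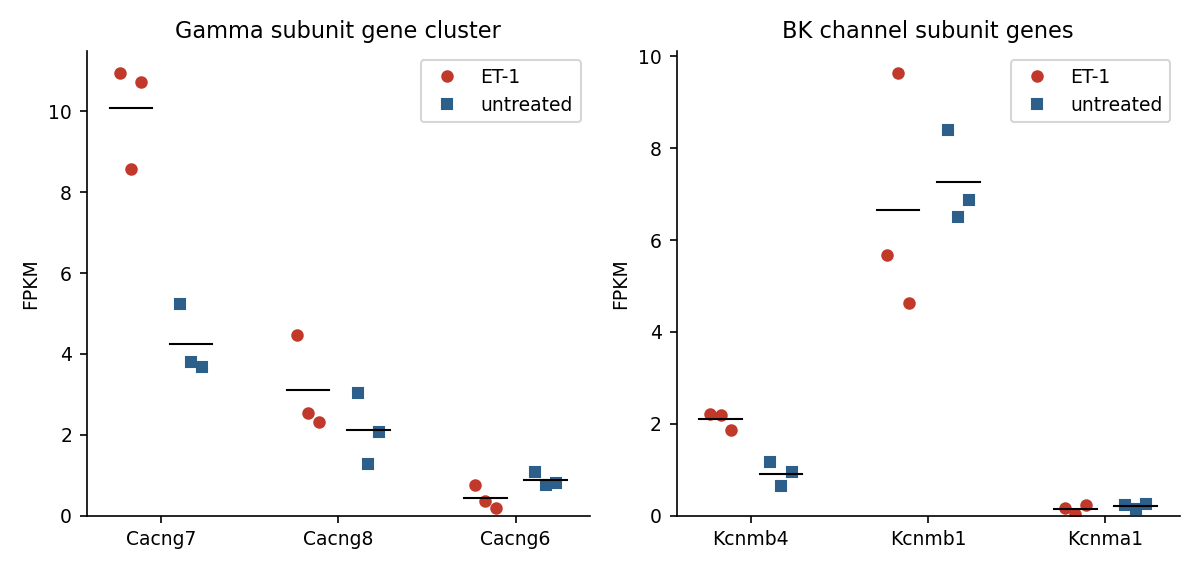
FPKM by library (circles ET-1, squares untreated; lines are means of 3 libraries) of the gamma subunit genes on chromosome 7, and of the BK channel genes. Cacng7 at 8.57 to 10.96 FPKM in ET-1 against 3.67 to 5.24 FPKM in untreated libraries, and Kcnmb4 at 1.87 to 2.22 against 0.64 to 1.16 FPKM, do not overlap, whereas Cacng8 and Kcnmb1 do.

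Among the remaining calcium channel subunits, Cacnb3 was at 37.47, 44.24 and 28.59 FPKM in ET-1 libraries and 25.95, 25.34 and 24.87 FPKM in untreated libraries. The 3 untreated values lay close together and below every ET-1 value, whereas the ET-1 values were spread widely (SD 7.85 against 0.54 FPKM). It did not pass (log2 change 0.50, 95% interval 0.12 to 0.87, limma adjusted p = 0.123) except without ET-1 library 3 (0.0364). Cacnb1, the beta subunit of skeletal muscle channels, averaged 2.52 ± 0.57 FPKM in ET-1 and 1.78 ± 0.37 FPKM in untreated libraries (SD, n = 3 each). Its groups did not overlap, and it did not pass (limma adjusted p = 0.263). Cacnb2, which pairs with the cardiac and smooth muscle pore, averaged 1.87 ± 0.26 and 2.48 ± 0.76 FPKM in that order, and Cacna2d1, the extracellular alpha2-delta subunit, 3.78 ± 0.99 and 2.86 ± 0.14 FPKM (SD, n = 3 each); both overlapped between groups.

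The calcium channel pores were low and did not pass. Cacna1c, the L-type pore that triggers smooth muscle contraction, was at 0.99, 0.73 and 1.61 FPKM in ET-1 libraries and 1.94, 1.15 and 1.92 FPKM in untreated libraries. The groups overlapped (log2 change -0.35, 95% interval -0.82 to 0.13). Cacna1h, a T-type pore that opens at low voltage, was at 1.10, 1.31 and 1.02 FPKM in ET-1 libraries and 1.18, 0.99 and 0.96 FPKM in untreated libraries (log2 change 0.068, 95% interval -0.20 to 0.34). Cacna1d, another L-type pore, averaged 0.30 ± 0.12 and 0.20 ± 0.045 FPKM in ET-1 and untreated libraries, and the T-type pore Cacna1g 0.060 ± 0.010 and 0.030 ± 0.020 FPKM (SD, n = 3 each). The Cacnb3 level was 17.8 to 60.6 times the Cacna1c level in ET-1 libraries and 12.95 to 22.0 times in untreated libraries.

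Of the tandem pore domain (K2P) potassium channels, which carry background currents, 4 of 13 passed the filter and none passed the test (limma; with the replicate block Kcnk1 did). Kcnk1, a weakly conducting member, was at 6.06, 4.17 and 10.06 FPKM in ET-1 libraries and 25.46, 9.21 and 20.67 FPKM in untreated libraries. Untreated library 2 lay below ET-1 library 3, so the groups overlapped. The log2 change was -1.29 ± 0.41 (SE), with a limma adjusted p of 0.123 and, blocked on replicate number, of 0.0222. The summed Leydig markers were at 1685, 827.7 and 2422 FPKM in ET-1 libraries and 4889, 2335 and 4960 FPKM in untreated libraries, so the same library was lowest in both and the 2 highest were the same. That sum is mostly Insl3. Of the 4 tested markers in it, 3 had a negative log2 change, as Kcnk1 had, and Star a positive one. Cyp11a1 was at 211.4, 87.85 and 131.9 FPKM in ET-1 libraries and 384.5, 197.3 and 318.1 FPKM in untreated libraries. Star was at 130.3, 103.7 and 155.1 FPKM in ET-1 libraries and 77.7, 79.7 and 62.0 FPKM in untreated libraries, opposite in direction to Kcnk1. The endothelial markers summed to 36.1, 26.8 and 47.2 FPKM in ET-1 libraries and 95.6, 60.4 and 82.7 FPKM in untreated libraries. This sum had the same lowest and the same 2 highest libraries as Kcnk1, so the match is not particular to the Leydig list. In 5 of the 6 tested endothelial markers all ET-1 values lay below the untreated ones (17.6% of all genes), and Cdh5 had a positive log2 change. The part of Leydig or endothelial cells in the Kcnk1 values was not tested. An antisense gene covers 8.01% of the Kcnk1 exon bases.

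Kcnk5, an acid-sensitive member, averaged 1.23 ± 0.35 FPKM in ET-1 and 1.91 ± 0.77 FPKM in untreated libraries, and Kcnk13, known from microglia, 1.97 ± 0.85 and 2.21 ± 0.70 FPKM (SD, n = 3 each). Kcnk3, an acid-sensitive channel of pulmonary artery muscle, was at 0.84, 0.32 and 1.18 FPKM in ET-1 libraries and 1.65, 0.50 and 1.67 FPKM in untreated libraries, with library 2 lowest in each group (log2 change -0.33, 95% interval -1.01 to 0.34). Kcnk2, a stretch-sensitive member below the filter, was at 0.55, 0.70 and 0.63 FPKM in ET-1 libraries and 0.99, 2.23 and 1.30 FPKM in untreated libraries. These Kcnk2 groups did not overlap, and without a filter its limma adjusted p was 0.153.

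**Figure D5:**
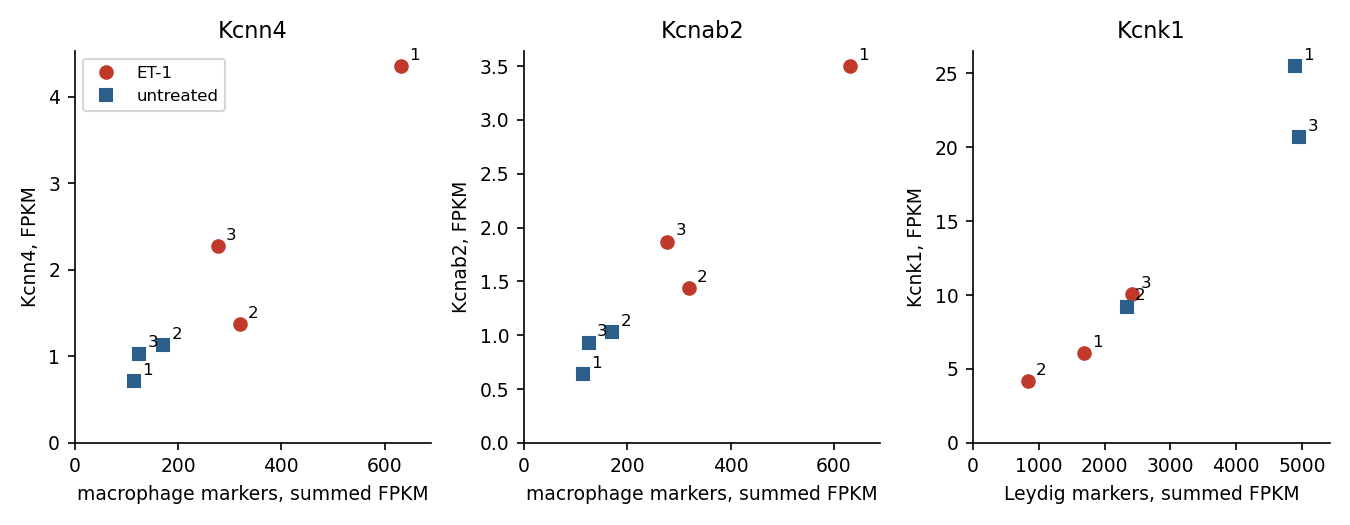
FPKM of Kcnn4 and Kcnab2 against the summed FPKM of 10 macrophage markers, and of Kcnk1 against that of 6 Leydig markers (mostly Insl3), with 1 point per library (circles ET-1, squares untreated) and its number beside it. ET-1 library 1 is highest in Kcnn4, Kcnab2 and the macrophage sum (631.6 FPKM), whereas ET-1 libraries 2 and 3 stand in opposite order in that sum and in the 2 genes. Untreated libraries 1 and 3 are highest in Kcnk1 and the Leydig sum, and also in the endothelial sum, which is not plotted.

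Kcnn4, the intermediate-conductance potassium channel opened by calcium and known from T cells, macrophages and proliferating smooth muscle, was at 4.35, 1.37 and 2.27 FPKM in ET-1 libraries and 0.71, 1.13 and 1.03 FPKM in untreated libraries. Kcnab2, a beta subunit that is also an aldo-keto reductase, was at 3.5, 1.44 and 1.87 FPKM in ET-1 libraries and 0.64, 1.03 and 0.93 FPKM in untreated libraries. In both genes all ET-1 values were higher, ET-1 library 1 was the highest and untreated library 1 the lowest. Neither passed (log2 changes 0.83 and 0.76, limma adjusted p = 0.144 and 0.116). Without ET-1 library 1 the log2 change was 0.51 for each. A same-strand transcript shares 2.24% of the Kcnab2 exon bases. The macrophage markers summed to 631.6, 319.2 and 277.2 FPKM in ET-1 libraries and 114.2, 171.5 and 125.4 FPKM in untreated libraries. ET-1 library 2 lay above ET-1 library 3 in this sum but below it in Kcnn4 and Kcnab2. In 5 of the 8 tested macrophage markers all ET-1 values lay above the untreated ones, as they did in 13.2% of all genes tested. Over all 10 macrophage markers, tested or not, this held for 6. Of the 8 tested, 7 had a positive log2 change and 1, Cd14, a negative one (16.6 FPKM in ET-1 and 23.0 FPKM in untreated libraries on average). None of the 10 was at 0 in all libraries, and their part in Kcnn4 and Kcnab2 was not tested. The other calcium-activated pores were lower, and Kcnn3 averaged 0.057 ± 0.064 FPKM in ET-1 and 0.027 ± 0.025 FPKM in untreated libraries (SD, n = 3 each).

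Inward rectifiers, which hold the resting voltage and include the pore of ATP-sensitive channels, had 1 of 15 members above the filter. Kcnj4, known from brain and heart, was at 0.71, 1.36 and 2.87 FPKM in ET-1 libraries and 3.94, 2.38 and 2.65 FPKM in untreated libraries, with overlapping groups (log2 change -0.65, 95% interval -1.38 to 0.073). Kcnj8, the ATP-sensitive pore of vascular muscle, averaged 0.52 ± 0.24 FPKM in ET-1 and 0.56 ± 0.12 FPKM in untreated libraries, and Kcnj2 0.14 ± 0.11 and 0.12 ± 0.017 FPKM (SD, n = 3 each). Abcc9, the partner of Kcnj8 in that channel, was at 0.14 ± 0.097 and 0.31 ± 0.096 FPKM in ET-1 and untreated libraries (SD, n = 3 each).

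Of 8 TRPM and 6 TRPV genes, 3 passed the filter. Trpv2, a cation channel of stretched or lipid-stimulated cells, was at 12.29, 12.92 and 11.37 FPKM in ET-1 libraries and 15.52, 12.66 and 13.61 FPKM in untreated libraries (log2 change -0.18, 95% interval -0.44 to 0.091). Trpm7, a magnesium- and calcium-permeable channel fused to a kinase, was at 8.39, 8.05 and 10.63 FPKM in ET-1 libraries and 10.74, 10.79 and 10.56 FPKM in untreated libraries (log2 change -0.23, 95% interval -0.53 to 0.064). Both overlapped between the groups. Trpm4, a calcium-activated sodium and potassium channel that depolarises arterial muscle, was at 5.87, 4.38 and 6.45 FPKM in ET-1 libraries and 4.31, 3.12 and 3.85 FPKM in untreated libraries. All ET-1 values lay above the untreated values, and it did not pass (log2 change 0.46, 95% interval 0.064 to 0.85, limma adjusted p = 0.155). Trpv4, an osmotic and stretch sensor below the filter, was at 1.86, 0.78 and 1.01 FPKM in ET-1 libraries and 0.70, 0.51 and 0.77 FPKM in untreated libraries.

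Partners and regulators of these channels that the symbol rule leaves out were read from a list of 50 genes, 27 of which were tested. None passed in limma (4 had an unadjusted p under 0.05), and their median log2 change was -0.058. With the replicate block 2 of the 27 passed, where 9.45% of all genes did, so the partners did not exceed the background. Of these, Lrp1, an endocytic receptor that binds calcium channel alpha2-delta subunits, was higher (log2 change 0.60, limma adjusted p = 0.0274), and Sgk1, a kinase that raises channel numbers at the membrane, was lower (-1.11, 0.0435). Lrp1 averaged 49.5 ± 6.8 FPKM in ET-1 and 32.6 ± 7.2 FPKM in untreated libraries, and Sgk1 43.1 ± 24.5 and 88.6 ± 26.6 FPKM in that order (SD, n = 3 each). Rem1, a small GTPase that inhibits calcium channels by binding their beta subunits, averaged 27.2 ± 3.9 FPKM in ET-1 and 21.6 ± 5.4 FPKM in untreated libraries (SD, n = 3 each). Ryr1, Ryr2 and Ryr3, the calcium release channels that face BK channels in arterial muscle, were all at or below 0.11 FPKM.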

How the data were processed

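RNA of 3 ET-1 and 3 untreated libraries was sequenced. The submitters' processing notes name RSEM 1.2.12, HISAT2 2.0.4 and Bowtie2 2.2.5, and as build mm10, without saying what each did. The authors deposited FPKM per gene and library, rounded to 2 decimals, together with mean FPKM per group, a log2 fold change, and a p-value and q-value named for DEGseq per the file headers; no source used here says how these treated replicates.

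Values were put on the log2 scale after adding 1 to each FPKM, and genes that reached 1 FPKM in 3 or more libraries entered limma 3.58.1 in R 4.3.3 (mean-variance trend, group only, two-sided, Benjamini-Hochberg over all tested genes, threshold 0.05) after a check on simulated data. A fold change on this scale understates that of low genes. No permutation test is given, since the exact one cannot go below p = 0.1 with 3 libraries a group. Fragments per gene were approximated from FPKM, the deposited transcript length and depth, and no count test was run. Depth was chosen to maximise the share of low values within 0.15 of a whole fragment. That share was 82.9% to 88.3%, which is therefore no separate check of the depth.

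Members, lists and tests were chosen with earlier results of these data known. Named were channel genes past the threshold, the 8 with the smallest p, the 10 with the highest level, and a list of smooth muscle channels; others were chosen after their values were seen, and a few genes are not reported here. Libraries sharing a number deviated in the same direction from the means of their groups (correlations across genes 0.228, 0.523 and 0.202 for numbers 1, 2 and 3), so the replicate number was used as a block; the labels do not say what a number stands for, and 2 crossed pairs, at 0.249 and 0.271, lay as high as numbers 1 and 3. Untreated libraries 1 and 3 correlated more closely (Pearson 0.996 across genes) than the other pairs within a group (0.973 to 0.983), so an alternative used their mean. Overlaps with other genes were read from GENCODE M21 exons.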

Additional observations from a re-analysis of the deposited data

How the results depend on the processing

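The count of 2 channel genes past the limma threshold became 1 with a pseudocount of 0.1 or 5, without a filter, with a filter on a mean FPKM of 0.5, with equal medians and with quantile normalization; in each of these settings the gene was Cacng7. It was 3 with the replicate block, and 0 with untreated libraries 1 and 3 averaged (5 at an unadjusted p under 0.05). Leaving out 1 library gave 0 to 2, the 0 arising when ET-1 library 1 (7 below 0.05 before adjustment in limma) or untreated library 3 (5) was dropped. Of all genes, 193 passed without a filter, 1102 with the replicate block, 9 with the averaged libraries, and 0 to 797 when 1 library was left out, the 0 being without untreated library 3 (1653 below 0.05 by limma before adjustment). Among 19 named genes the sign turned only for Kcnab3, without ET-1 library 2 (-0.017) or untreated library 3 (-0.026), and for Kcnmb1 without ET-1 library 3 (0.035); over all 6 omissions the log2 change ran from -0.026 to 0.24 for Kcnab3 and from -0.42 to 0.035 for Kcnmb1. Calls of single genes changed besides only for Cacng7, Kcnmb4, Cacnb3 and Kcnk1, and the causes were not tested. Among channel and partner genes, the replicate block changed the calls of Kcnk1, Lrp1 and Sgk1 and no other. Kcnmb4, with its short deposited model, rests on 12 to 40 fragments a library, whereas Cacna1h, also near 1 FPKM, rests on 145 to 190.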
